A study of Mus musculus with 8 samples.

Results

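The unfolded protein response and the chaperones of the endoplasmic reticulum (ER) were described here through 36 genes, taken by gene name from a table of 47493 genes measured in 8 RNA-seq libraries. All 36 were found, each in a single row, and all 36 passed the filter on low values, which left 12166 genes for testing. The libraries came from 4 female C57BL/6 mice of 6 to 8 weeks, each of which gave 1 library of an IL-18Rα-hi-enriched fraction and 1 of a flow-through fraction of endogenous CD8+ T cells. Every mouse had received 200000 B16F10 cells, a mouse melanoma line, then 300 mg/kg cyclophosphamide on day 3, 2000000 Pmel-1 cells on day 5, which are Thy1.1+ CD8+ T cells with a transgenic receptor against a melanoma antigen that had been activated in culture, and 10000 IU of IL-2 daily for 3 days. Anti-CD4 antibody (GK1.5, 200 μg) followed weekly from day 10, and spleen and inguinal lymph nodes were taken on day 25. Both fractions thus came from the same treated mice, with no untreated group. CD8+ cells were isolated and Thy1.1+ cells removed with beads, so that the endogenous cells were kept, and cells retained on a column through an antibody against IL-18Rα formed the enriched fraction, while the cells that ran through served as the control. The column splits the cells by 1 surface protein, and each fraction remains a mixture of T-cell states.

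The ER folds the proteins that a cell secretes or carries on its surface. When unfolded proteins build up there, the membrane sensors IRE1 (Ern1), PERK (Eif2ak3) and ATF6 signal to the nucleus. IRE1 splices the mRNA of Xbp1 into the form that encodes an active transcription factor, ATF6 is cut in the Golgi to release one, and PERK slows translation and favors ATF4, which in turn induces CHOP (Ddit3). XBP1 and ATF6 raise the genes of chaperones, of disulfide-forming enzymes and of ER-associated degradation, the route by which misfolded proteins return to the cytosol. Plasma cells, which secrete antibody, carry much of this machinery. Gene levels do not show whether Xbp1 mRNA was spliced or ATF6 cut.

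Many of these genes share a promoter element, the ER stress response element (ERSE), the letters CCAAT and CCACG held 9 bases apart, which binds NF-Y at its CCAAT end and ATF6 or XBP1 at its CCACG end. In RefSeq promoters of the mouse genome build GRCm38.p6, from 250 bases before to 50 bases after each start site, 31 of the 36 genes had an entry (none for Hyou1, Manf, Atf6, Derl1 and Sec61a1). Searched on both strands, the ERSE letters stood in a promoter of 10 of these 31 genes (32.3%) and in 0.119% of all 32851 promoter entries. A gene was counted if any of its entries held the letters, so the shares have unlike units. Pdia6, Ero1lb and Syvn1 were among the 10 and are not printed. The sequences below show the ERSE in genes that passed the test described further on and in genes that did not. Each is written 5′ to 3′ on the gene's own strand, with the match in capitals, and lies upstream of the start site. In the second Hsp90b1 sequence and in those of Creld2, Calr and Derl3 the match lies on the other strand, so the capitals read as its reverse complement.
Hspa5 (chr2:34772005-34772063, plus strand): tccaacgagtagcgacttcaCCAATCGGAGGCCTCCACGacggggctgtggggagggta
Hsp90b1, distal (chr10:86705618-86705676, minus strand): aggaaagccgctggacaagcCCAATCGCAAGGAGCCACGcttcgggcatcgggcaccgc
Hsp90b1, proximal (chr10:86705513-86705571, minus strand): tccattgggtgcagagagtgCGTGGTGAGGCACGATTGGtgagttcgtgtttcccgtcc
Dnajc3 (chr14:118937807-118937865, plus strand): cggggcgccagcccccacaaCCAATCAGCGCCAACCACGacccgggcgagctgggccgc
Creld2 (chr15:88819500-88819558, plus strand): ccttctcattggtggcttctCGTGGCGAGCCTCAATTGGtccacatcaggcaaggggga
Calr (chr8:84847055-84847113, minus strand): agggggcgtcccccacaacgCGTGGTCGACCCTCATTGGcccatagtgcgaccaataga
Canx (chr11:50325780-50325838, minus strand): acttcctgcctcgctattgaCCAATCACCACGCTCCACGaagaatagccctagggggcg
Derl3 (chr10:75893222-75893280, plus strand): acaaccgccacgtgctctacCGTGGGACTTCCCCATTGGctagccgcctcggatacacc
The shorter ERSE-II, the letters ATTGG and CCACG held 1 base apart, so that it shares CCACG with the ERSE, stood in a promoter of 2 of the 31 genes, Herpud1 and Dnajb11, and in 0.0365% of all promoter entries, and it is shown for Herpud1.
Herpud1 (chr8:94386357-94386407, plus strand): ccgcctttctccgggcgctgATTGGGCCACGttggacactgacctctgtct
The letters TGACGTGG, a binding sequence of XBP1 and ATF6, and TGATGNAAT, one of ATF4 with C/EBP proteins, stood in no window of the 31 genes, against 0.676% and 0.965% of all promoter entries.

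The sort was visible in its target. Il18r1, which encodes IL-18Rα, stood at 30.6 ± 6.96 FPKM (fragment counts set relative to the length of the transcript and the size of the library) in the flow-through and at 111 ± 3.87 FPKM in the enriched libraries (mean ± SD, n = 4 each), a log2 fold change of 1.85 (limma, adjusted p = 0.000291). The depth, estimated from the value that a single fragment is worth, was 14700000 to 17800000 fragments per library, and 11706 to 12288 genes reached 1 FPKM. The summed level of 8 CD8 T-cell identity genes was 1337 FPKM in the flow-through library of mouse 1, 2144 to 2548 FPKM in the flow-through of mice 2 to 4 and 2542 to 2724 FPKM in the enriched ones, although Cd8a and Cd3e were present in every library. The flow-through library of mouse 1 also had the highest summed level of 11 erythroid genes, 3113 FPKM, where the flow-through of mice 2 to 4 had 996 to 1747 FPKM and the enriched libraries had 265 to 1648 FPKM. Where leaving this library out moved a log2 fold change discussed below by over 1.5 times, the value without it is collected after the groups of genes.

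Of the 36 genes, 9 were higher and none lower in the enriched fraction at an adjusted p under 0.05 (limma on log2(FPKM + 1), two-sided, adjusted by Benjamini-Hochberg over all 12166 genes). This was 25.0% of the genes higher, where 14.1% of all genes tested were called higher and 13.7% lower. Without adjustment the 9 had p-values of 4.04e-05 (Atf6) to 0.00924 (Dnajc3). The genes called higher were the chaperones and co-chaperones Hsp90b1, Dnajb11, Dnajc3 and Sdf2l1, the oxidoreductases and related folding enzymes Pdia3, Pdia4, Ero1l and Creld2, and the sensor Atf6. Their log2 fold changes lay between 0.40 and 0.80, and the median of all 36 was 0.24, where that of all genes was -0.018. No lectin chaperone, transcription factor, ER-associated degradation or translocon gene was called by limma, and at an unadjusted p under 0.05 there were 5 higher (Xbp1, Sel1l, Syvn1, Derl3 and Sec61g) and 1 lower (Ddit3) among them, the latter being the 1 gene of the 36 below that level in the lower direction. Counts at an unadjusted p, here and below, are given without the share of all genes at that level and are descriptive only. With 1 library left out, Atf6, Dnajb11, Sdf2l1, Pdia3 and Ero1l passed each time, whereas Hsp90b1, Dnajc3, Pdia4 and Creld2 lost their calls, leaving 5 genes, without flow-through library 3 or 4 or enriched library 2, 3 or 4, and 14 genes were called without flow-through library 2. The share of all genes called higher was 9.24% to 13.1% in the fits that left 5 genes and 14.8% without flow-through library 2. A fit with the mouse as a block, which compares the fractions within each mouse, called 18 of the 36 higher and 1 (Ddit3) lower, against 22.2% and 22.7% of all genes. Throughout, a level is the FPKM value, and a log2 fold change is a difference of log2(FPKM + 1), enriched minus flow-through.

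The calls depended on how libraries were scaled to each other. When each library was shifted so that the 8 T-cell identity genes had the same mean level in all, the median of all genes moved from -0.018 to -0.36, none of the 36 genes passed in limma in either direction (0 higher and 2 lower at an unadjusted p under 0.05), and the 9 named above kept positive values. Calls fell over all genes too, to 2.89% higher and 6.86% lower. This scaling moves every gene by the same amount, so the order of the genes and their place relative to the median of all genes stay as they were. In mice 2 to 4 alone, T-cell scaling (added after seeing the data) left Atf6 as the 1 called gene, at a log2 fold change of 0.78 (limma, adjusted p = 0.00476), where 8.8% of all genes were called higher. With FPKM as deposited 12 of the 36 genes were called higher when both libraries of mouse 1 were left out (14.7% of all genes), and 9 when its flow-through library alone was (14.1%).

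**Figure D1:**
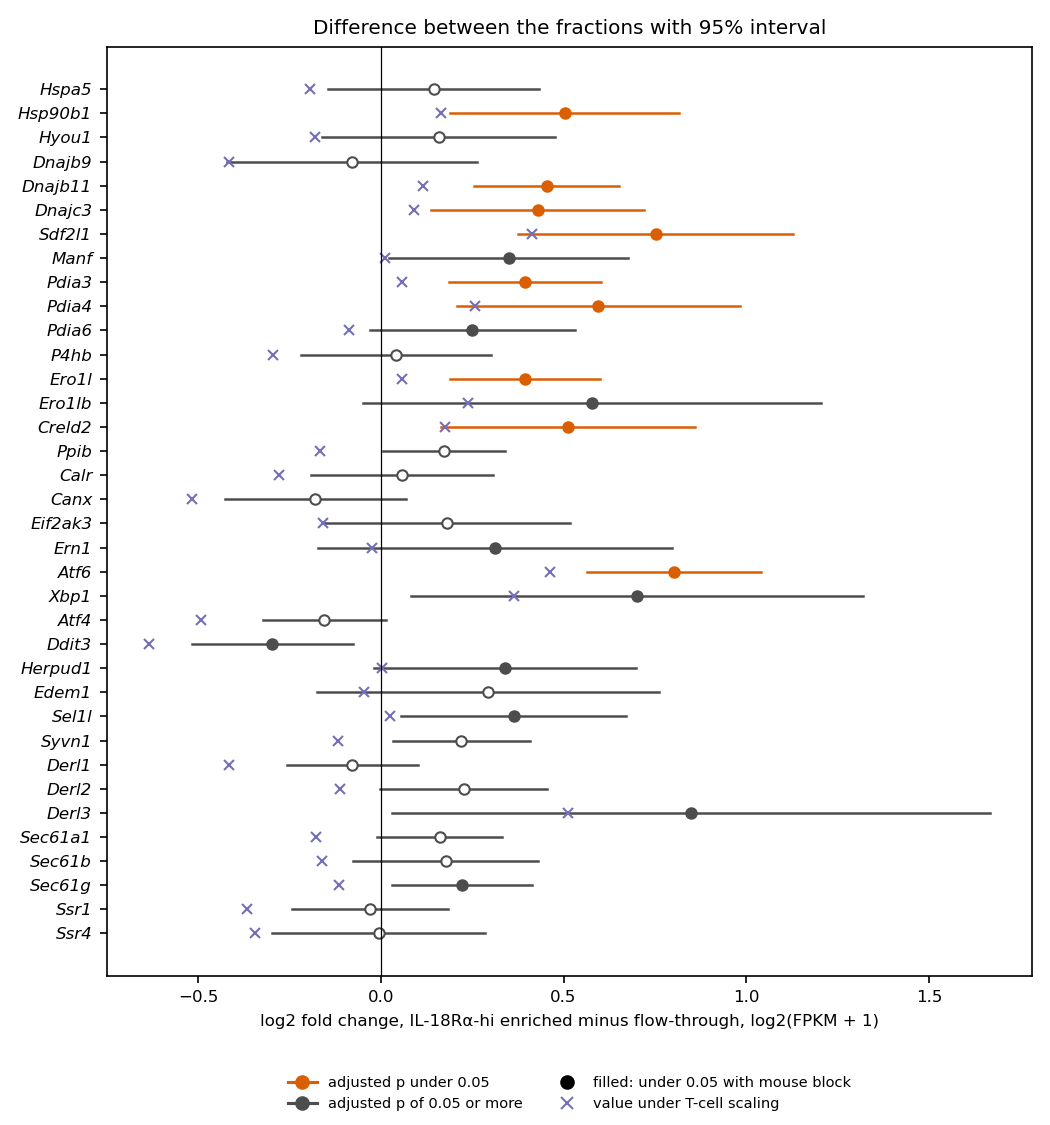
Log2 fold change of each of the 36 genes, enriched minus flow-through, with its 95% interval from limma (n = 4 libraries each). Orange points passed at an adjusted p under 0.05, filled points passed with the mouse as a block, and crosses give the value under T-cell scaling, which lies lower for every gene.

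Among the 8 luminal chaperones and co-chaperones, 4 rose and the others did not pass. Hsp90b1, which encodes GRP94, the HSP90 of the ER that folds integrins and Toll-like receptors, was at 169.5, 259, 231 and 200.1 FPKM in the flow-through libraries of mice 1 to 4 and 263, 336, 307 and 303 FPKM in the enriched libraries. Every enriched library was above every flow-through library, with a log2 fold change of 0.50 (SE 0.14, adjusted p = 0.0278). Sdf2l1, part of a chaperone complex with BiP, was at 42.0, 75.1, 54.5 and 49.3 FPKM in the flow-through libraries of mice 1 to 4 and 86.6, 100.2, 83.2 and 97.4 FPKM in the enriched libraries. The fractions again did not overlap, at a log2 fold change of 0.75 (SE 0.17, adjusted p = 0.0121), although the flow-through library of mouse 2 lay well above the other 3. Dnajb11 (ERdj3), a co-chaperone that hands unfolded proteins to BiP, was at 56.5, 69.9, 70.5 and 59.5 FPKM in the flow-through libraries of mice 1 to 4 and 87.5, 89.2, 88.1 and 86.3 FPKM in the enriched libraries. Its 4 enriched libraries lay within 3 FPKM of each other and all above the flow-through, for a log2 fold change of 0.45 (SE 0.087, adjusted p = 0.00738). Dnajc3 (p58IPK), a co-chaperone and inhibitor of PERK, ranged from 26.5 to 41.9 FPKM in the flow-through and 43.0 to 49.0 FPKM in the enriched libraries. The fractions stood apart here too, at a log2 fold change of 0.43 (SE 0.13, adjusted p = 0.0382).

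Hspa5 encodes BiP, the HSP70 of the ER, which binds the sensors at rest and is the usual readout of ER stress. It was at 239, 337, 323 and 297 FPKM in the flow-through libraries of mice 1 to 4 and 282, 366, 331 and 338 FPKM in the enriched libraries. Within each mouse the enriched library was the higher, but the fractions overlapped over most of their range, and the log2 fold change of 0.14 (SE 0.13, adjusted p = 0.418) did not pass, with a 95% interval of -0.14 to 0.43. Manf, a secreted ER stress protein, stood at 62.9 to 103 FPKM in the flow-through and 103 to 111 FPKM in the enriched libraries, and its log2 fold change of 0.35 (SE 0.14, adjusted p = 0.10) passed with the mouse as a block (adjusted p = 0.0395). Hyou1 (GRP170), the exchange factor of BiP, gave a log2 fold change of 0.16 (SE 0.14, adjusted p = 0.424), and Dnajb9 (ERdj4), a repressor of IRE1, a log2 fold change of -0.078 (SE 0.15, adjusted p = 0.721), and neither passed with the block. Among these 8 genes BiP and GRP94 had the highest levels per length, and Dnajb9 the lowest.

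Of the 8 oxidoreductases and their partners, which form and rearrange disulfide bonds or turn prolyl bonds, 4 rose. Pdia3 (ERp57), which works with the lectin chaperones on glycoproteins and in the loading of MHC class I, was at 209.9, 265, 243 and 214 FPKM in the flow-through libraries of mice 1 to 4 and 292, 327, 306 and 298 FPKM in the enriched libraries. The lowest enriched library lay above the highest flow-through library, at a log2 fold change of 0.40 (SE 0.091, adjusted p = 0.0147). Pdia4 (ERp72) was at 40.4, 74.0, 59.8 and 57.6 FPKM in the flow-through libraries of mice 1 to 4 and 75.9, 97.8, 84.6 and 87.7 FPKM in the enriched libraries. These did not overlap either, with a log2 fold change of 0.60 (SE 0.17, adjusted p = 0.0327). Ero1l (ERO1α), the oxidase that recharges protein disulfide isomerase, was at 19.5, 23.7, 21 and 20.1 FPKM in the flow-through libraries of mice 1 to 4 and 25.2, 30.9, 27.8 and 28.3 FPKM in the enriched libraries. Its fractions stood apart by a smaller margin in FPKM, at a log2 fold change of 0.40 (SE 0.09, adjusted p = 0.0139).

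Creld2, a target of ATF6 with isomerase activity, stood at 25.2 to 41.2 FPKM in the flow-through and 40.3 to 54.1 FPKM in the enriched libraries, so that 1 enriched library, that of mouse 1, fell inside the flow-through range, and the log2 fold change of 0.51 (SE 0.15, adjusted p = 0.0372) passed. Ero1lb (ERO1β), the paralog of Ero1l that is abundant in secretory cells, was at 2.95, 8.79, 5.66 and 6.47 FPKM in the flow-through and 6.61, 11.5, 7.91 and 10.3 FPKM in the enriched libraries. It was higher in the enriched library of all 4 mice, but the spread between mice was wide and the log2 fold change of 0.58 (SE 0.28, adjusted p = 0.148) passed only with the block (adjusted p = 0.00777). Pdia6 (P5), with a log2 fold change of 0.25 (SE 0.12, adjusted p = 0.160), also passed with the block (adjusted p = 0.0172). P4hb, the protein disulfide isomerase itself, had a 95% interval of -0.22 to 0.30 around a log2 fold change of 0.042 (adjusted p = 0.804). For Ppib (cyclophilin B) the log2 fold change of 0.17 (SE 0.073, adjusted p = 0.110) did not pass in either fit.

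Neither lectin chaperone was called. Calr, calreticulin, was among the most abundant of the 36 genes, at 338, 449, 383 and 358 FPKM in the flow-through libraries of mice 1 to 4 and 359, 448, 400.2 and 381 FPKM in the enriched libraries. The 2 sets of values covered nearly the same range, with a log2 fold change of 0.059 and a 95% interval of -0.19 to 0.31 (adjusted p = 0.713). Canx, calnexin, the membrane-bound form, was at 182, 145, 169.5 and 132 FPKM in the flow-through and 141, 138, 144 and 128 FPKM in the enriched libraries. It was lower in the enriched library of all 4 mice, and the log2 fold change of -0.18 (SE 0.11, adjusted p = 0.245) passed neither alone nor with the block (adjusted p = 0.0965). The promoters of both hold the ERSE printed above. Over all 31 genes with a promoter entry, 3 of 10 with the ERSE and 5 of 21 without it were called higher, with median log2 fold changes of 0.34 and 0.23.

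**Figure D2:**
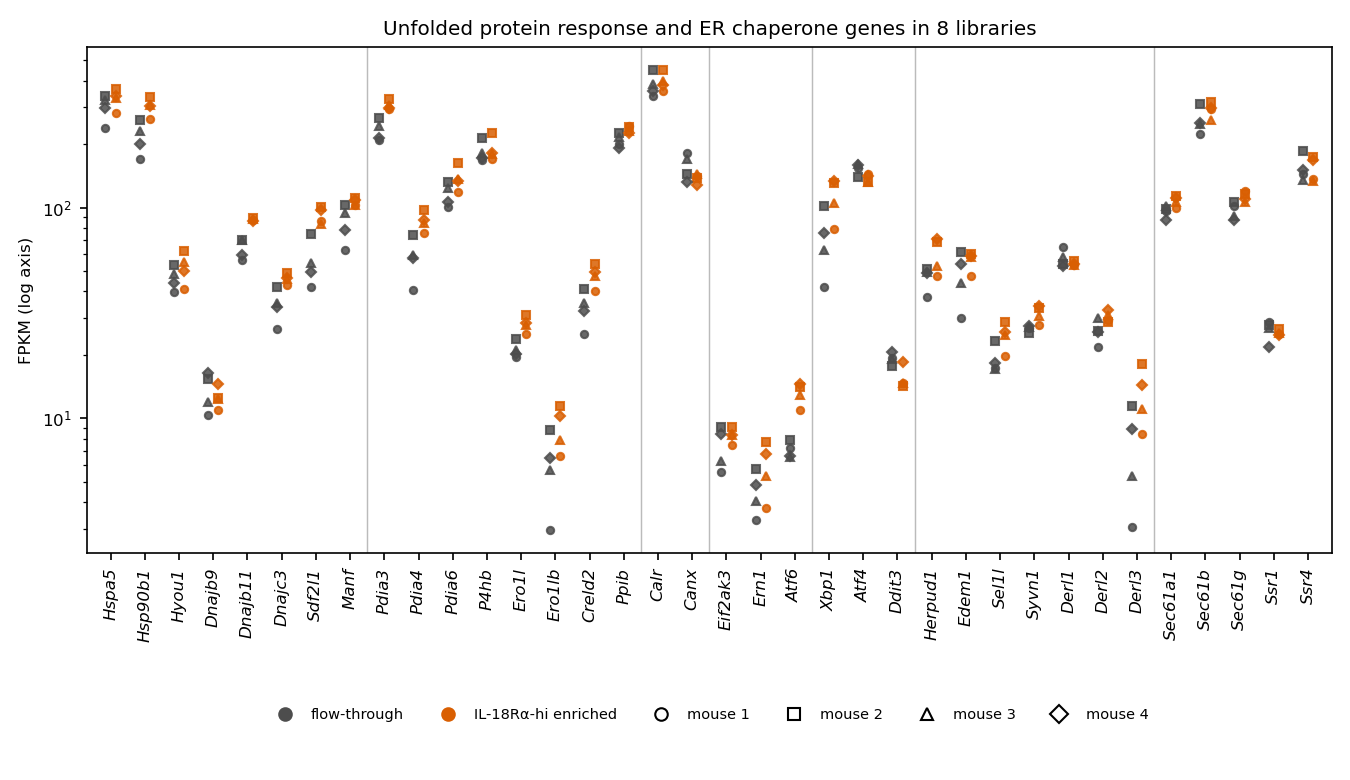
FPKM of the 36 genes (log axis) in the 8 libraries, flow-through in grey and enriched in orange, with a symbol for each mouse and vertical lines between the groups of genes by role. The circle of mouse 1 is the lowest of its fraction in both fractions for 20 of the genes, and the enriched points of Hsp90b1, Dnajb11, Sdf2l1 and Atf6 lie above all their flow-through points.

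Atf6 was the sensor that passed, and had the smallest adjusted p of the 36 genes. It was at 7.20, 7.89, 6.57 and 6.65 FPKM in the flow-through libraries of mice 1 to 4 and 11.0, 14.2, 12.9 and 14.5 FPKM in the enriched libraries. The enriched libraries lay above 10 FPKM and the flow-through libraries below 8 FPKM, for a log2 fold change of 0.80 (SE 0.10, adjusted p = 0.00184) and a ratio of mean levels of 1.85. Ern1, which encodes IRE1α, was at 3.30, 5.74, 4.06 and 4.84 FPKM in the flow-through and 3.75, 7.72, 5.31 and 6.81 FPKM in the enriched libraries. It was higher in the enriched library of each mouse, by less than the distance between mice, and the log2 fold change of 0.31 (SE 0.21, adjusted p = 0.296) passed only with the block (adjusted p = 0.0277). Eif2ak3, which encodes PERK, ranged from 5.54 to 9.10 FPKM in the flow-through and 7.5 to 9.07 FPKM in the enriched libraries and was higher in 2 of 4 mice, with a log2 fold change of 0.18 (SE 0.15, adjusted p = 0.387).

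Among the transcription factors, the target of IRE1 and the genes downstream of PERK had fold changes of opposite sign, and none of the 3 passed without the block. Xbp1 was at 41.9, 102, 62.9 and 75.9 FPKM in the flow-through libraries of mice 1 to 4 and 78.8, 131, 105 and 134 FPKM in the enriched libraries. It was higher in the enriched library of all 4 mice while the fractions overlapped, and its log2 fold change of 0.70 (SE 0.27, adjusted p = 0.0856) passed with the block (adjusted p = 0.00197). Atf4 was at 154, 139, 162 and 159 FPKM in the flow-through and 144, 132, 133 and 142 FPKM in the enriched libraries. All 4 mice had less in the enriched library, but the log2 fold change of -0.15 (SE 0.074, adjusted p = 0.151) did not pass, nor with the block (adjusted p = 0.0923). Ddit3 (CHOP), which promotes cell death in lasting ER stress, was at 19.4, 17.8, 19.2 and 20.5 FPKM in the flow-through libraries of mice 1 to 4 and 14.7, 14.2, 14.7 and 18.5 FPKM in the enriched libraries. In 3 mice the enriched value was below every flow-through value, while that of mouse 4, 18.5 FPKM, lay inside the flow-through range. Its log2 fold change of -0.30 (SE 0.10, adjusted p = 0.0508) stood just outside the threshold, and with the block it passed as lower (adjusted p = 0.0160). No test compared these genes with each other.

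**Figure D3:**
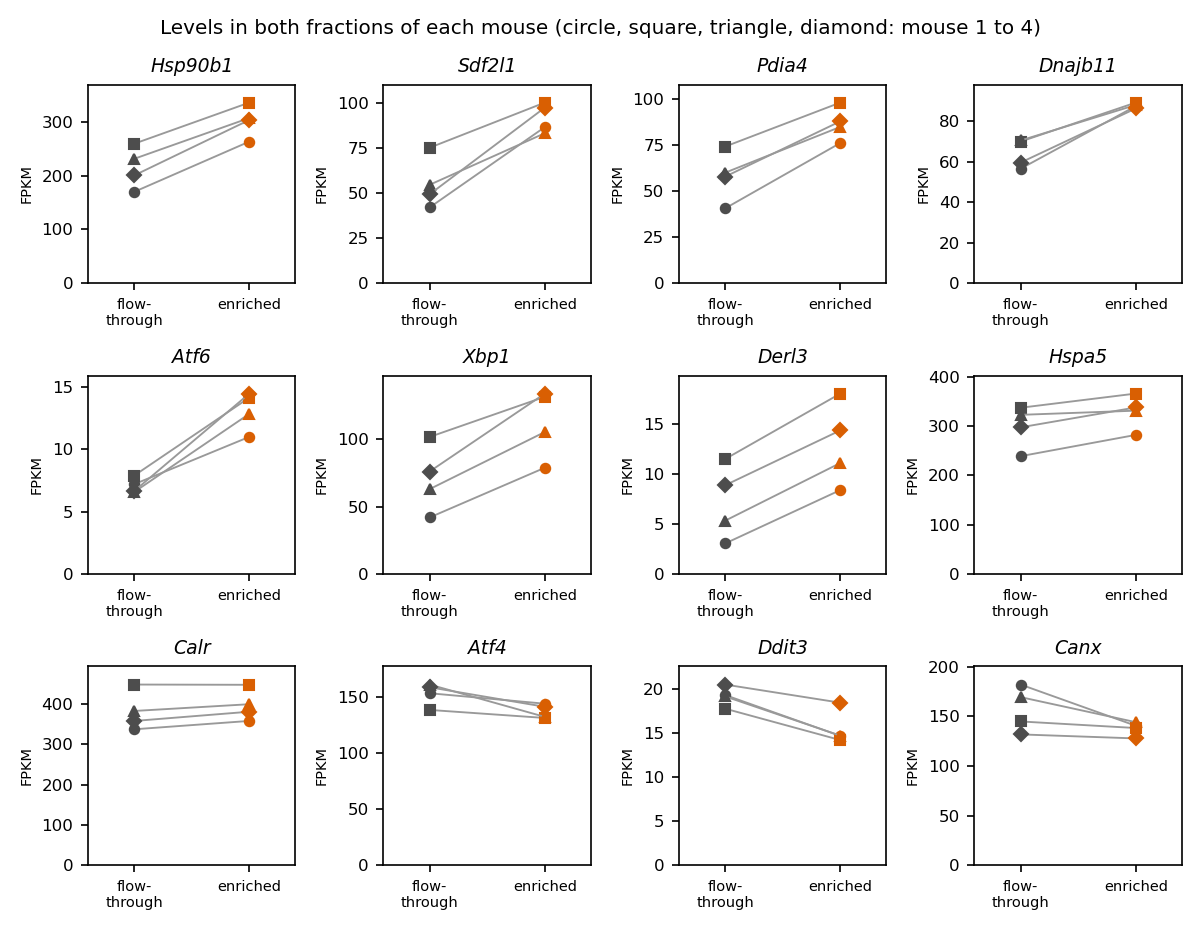
FPKM of 12 of the genes in the flow-through and the enriched library of each mouse, joined by lines, 1 symbol per mouse. All 4 lines go up for Hsp90b1, Sdf2l1, Pdia4, Dnajb11, Atf6, Xbp1, Derl3 and Hspa5, and all 4 go down for Atf4, Ddit3 and Canx.

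Of the 7 genes of ER-associated degradation, none passed without the block. Derl3, a derlin of the retrotranslocation channel that is abundant in secretory cells, had the largest fold change of the 36 genes on the log2(FPKM + 1) scale and the largest SE, although by the ratio of mean levels Atf6 (1.85) was above it (1.81). It was at 3.05, 11.5, 5.32 and 8.86 FPKM in the flow-through libraries of mice 1 to 4 and 8.39, 18.0, 11.1 and 14.3 FPKM in the enriched libraries. Each mouse had more in the enriched library, but flow-through values varied 3.77-fold between mice, and the log2 fold change of 0.85 (SE 0.36, adjusted p = 0.109) did not pass, while the block gave adjusted p = 0.00210. Sel1l, the scaffold of the HRD1 ubiquitin ligase, ranged from 17.1 to 23.3 FPKM in the flow-through and 19.8 to 28.6 FPKM in the enriched libraries, and Herpud1, which recruits factors to that ligase, from 37.5 to 51.3 FPKM in the flow-through and 47.3 to 71.0 FPKM in the enriched libraries. Both passed with the block, at adjusted p = 0.0113 and adjusted p = 0.0174, from log2 fold changes of 0.36 and 0.34. Syvn1, the HRD1 ligase itself, was at 26.8, 25.4, 27.2 and 27.4 FPKM in the flow-through and 27.6, 33.4, 30.4 and 33.9 FPKM in the enriched libraries. Its fractions did not overlap, if narrowly, and the log2 fold change of 0.22 (SE 0.082, adjusted p = 0.0774) passed in neither fit. The libraries of the 2 fractions failed to overlap upwards for 9 of the 36 genes (16.4% of all genes), the called genes except Creld2 together with Syvn1, and failed to overlap downwards for none (15.9%). Edem1, which draws misfolded glycoproteins into the route, Derl1 and Derl2 did not pass, with log2 fold changes of 0.29, -0.077 and 0.23.

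The 5 translocon genes, which encode the channel and partner proteins through which new chains enter the ER, had small fold changes. Sec61b, the β subunit of the channel, ranged from 224 to 311 FPKM in the flow-through and 261 to 317 FPKM in the enriched libraries, with a log2 fold change of 0.18 (SE 0.11, adjusted p = 0.258). Sec61g, the γ subunit, ranged from 87.3 to 106 FPKM in the flow-through and 106 to 119 FPKM in the enriched libraries, and its log2 fold change of 0.22 (adjusted p = 0.0805) passed with the block (adjusted p = 0.0260). For Sec61a1, the pore subunit, the log2 fold change of 0.16 (SE 0.075, adjusted p = 0.140) did not pass. The subunits of the translocon-associated protein complex had the values nearest to 0, -0.029 for Ssr1 and -0.0061 for Ssr4, with 95% intervals of -0.24 to 0.18 and -0.30 to 0.29.

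Without the flow-through library of mouse 1, the genes called were 9 again, while the log2 fold changes of uncalled genes came closer to 0 in most cases where they moved by over 1.5 times. That of Hspa5 went from 0.14 to 0.041, that of Edem1 from 0.29 to 0.093 and that of Eif2ak3 from 0.18 to 0.071. Those of Derl3, Ero1lb, Ern1 and Manf went from 0.85 to 0.55, from 0.58 to 0.33, from 0.31 to 0.20 and from 0.35 to 0.22. Hyou1 and Sec61b went to 0.090 and 0.11, Canx and Derl1 to -0.10 and -0.019, and P4hb and Calr to 0.0024 each. Dnajb9 moved away from 0, to -0.19. Ssr1 and Ssr4 stood at 0.016 and -0.035 without it.

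Within mice, 25 of the 36 genes were higher in the enriched library of all 4 and 3 (Canx, Atf4 and Ddit3) were lower in all 4, where 29.2% and 30.6% of all genes did so. The median difference of the 36 genes was 0.30, 0.21, 0.17 and 0.33 on the log2 scale in mice 1 to 4, with 30, 27, 29 and 31 of the genes higher. Mouse 1 had the lowest library of both fractions for 20 of the 36 genes (55.6%, against 25.9% of all genes).

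Part of this order between mice was shared with plasma cell genes, which had high levels in these CD8+ preparations. Jchain, the joining chain of secreted antibody, was at 272, 1171, 528 and 923 FPKM in the flow-through libraries of mice 1 to 4 and 493, 1381, 883 and 1355 FPKM in the enriched libraries. The 12 plasma cell markers measured summed to 6176 to 26008 FPKM in the flow-through and 11345 to 33935 FPKM in the enriched libraries, mostly from Igkc and Ighm, with the sum higher in the enriched library of 4 of 4 mice, 1.58-fold on average. An exact permutation test over 4 against 4 libraries, which sets this against the spread between mice, gave p = 0.314 (two-sided), and an exact sign-flip test of the 4 differences within mice, added after seeing the data, gave p = 0.125, the smallest it allows. The mean log2 difference was 0.66 (SD of the 4 mice 0.22), and 0.26 between group means without the flow-through library of mouse 1. Prdm1 and Irf4, which activated T cells express too, were the 2 markers called higher, and with the block 9 of the 12 were. In both fractions the libraries of Ero1lb, Ern1, Edem1 and Derl3 stood in the same order as those of Jchain, which held for 11.1% of the 36 genes and for 3.83% of all genes. In the enriched fraction alone, 13 of the 36 genes (36.1%, against 8.89% of all genes) stood in that order, among them Hspa5 and the called genes Dnajc3, Pdia4, Ero1l and Creld2. In the flow-through alone 7 did (19.4%, against 14.7%), Xbp1 among them. Of the called genes, Hsp90b1, Dnajb11, Sdf2l1, Pdia3 and Atf6 stood in that exact order in neither fraction. For Hsp90b1 and Pdia3, mouse 1 was still the lowest and mouse 2 the highest in both fractions, as for Jchain. The same held for Sdf2l1 in the flow-through. Dnajb11 had flow-through levels of 56.5 to 70.5 FPKM while Jchain ranged from 272 to 1171 FPKM, and Atf6 had flow-through levels of 6.57 to 7.89 FPKM over the same libraries. In the enriched libraries of mice 1 to 4, Atf6 was at 11.0, 14.2, 12.9 and 14.5 FPKM. There mouse 1 was the lowest and mouse 3 the next, as for Jchain, while mouse 4 and not mouse 2 was the highest. Dnajb11 had enriched levels of 86.3 to 89.2 FPKM. Markers of other cells moved too. Of the markers tested, 6 of 9 for NK cells (Gzma, Ncr1 and Klrb1c among them), 5 of 9 for dendritic cells, 3 of 10 for myeloid cells, both for CD4 T cells and 5 of 18 for proliferation were called higher, 1 for dendritic cells (Ccr9, also a T-cell gene) and 3 of 11 for erythroid cells lower, and none of 7 for B cells either way in limma (0 at an unadjusted p under 0.05). With the mouse as a block, 8 of 9 NK, 5 of 9 dendritic, 7 of 10 myeloid, both CD4 T-cell, 12 of 18 proliferation and 2 of 7 B-cell markers were higher, and 8 of 11 erythroid markers and 1 each for dendritic, myeloid and B cells were lower. These counts are to be read against 14.1% higher and 13.7% lower of all genes, or 22.2% and 22.7% with the block. The summed NK markers were at 102 to 278 FPKM in the flow-through and 295 to 616 FPKM in the enriched libraries, and the summed myeloid markers at 502 to 2668 and 783 to 3574 FPKM. Both CD4 T-cell markers together were low, at 1.43 to 5.68 FPKM in the flow-through and 7.66 to 26.9 FPKM in the enriched libraries. The part of these cells in the levels above was not tested, and in such bulk libraries fewer cells of a type cannot be told apart from less RNA per cell.

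**Figure D4:**
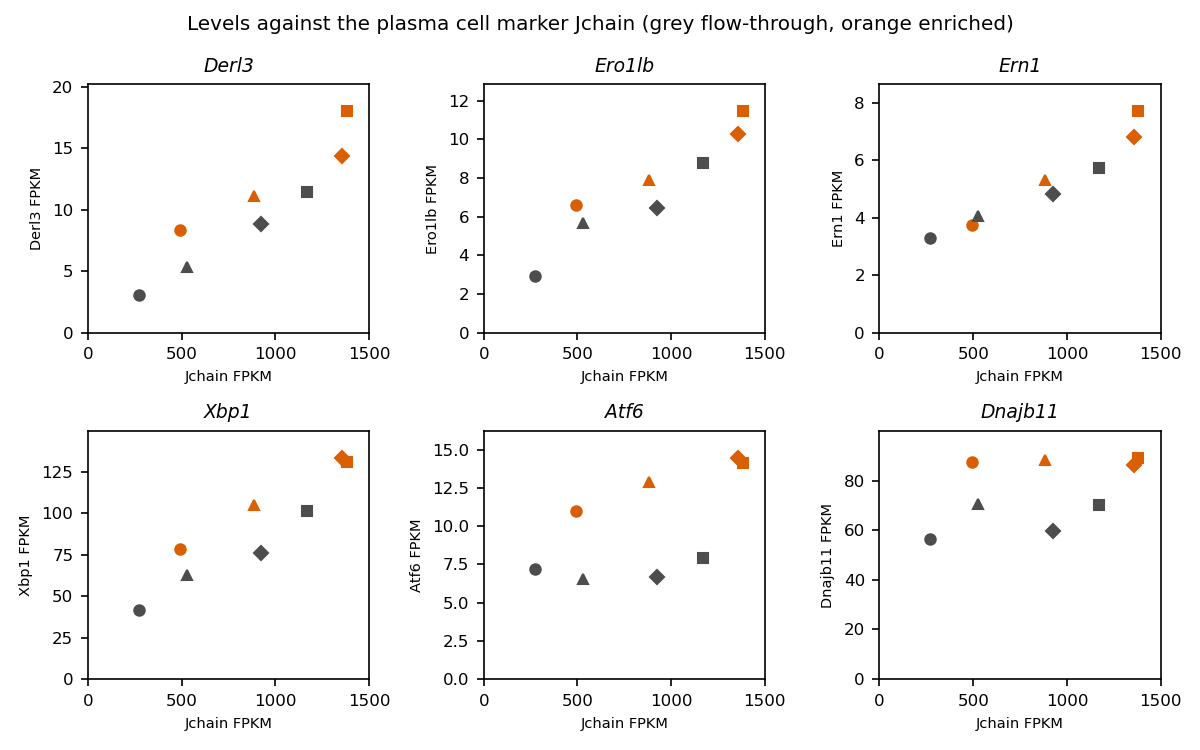
FPKM of 6 genes against the FPKM of the plasma cell marker Jchain in the same library, flow-through in grey, enriched in orange, 1 symbol per mouse (8 libraries, both axes linear). Derl3, Ero1lb and Ern1 climb with Jchain within each fraction. For Atf6 and Dnajb11 the 4 enriched libraries lie above all flow-through ones. That is a gap between the fractions, which would show against any other gene too and says nothing about Jchain.

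On FPKM as deposited, calls among the chaperones outside the ER went the other way. Of 23 cytosolic and mitochondrial heat shock and chaperonin genes, 10 were called lower by limma and none higher (16 and 0 at an unadjusted p under 0.05), at a median log2 fold change of -0.37, and 14 had enriched libraries that all lay below the flow-through. Over all genes, 13.7% were called lower and 15.9% lay below without overlap. The count called lower was 17 with the mouse as a block (1 higher, Hspb1, against 22.7% lower and 22.2% higher of all genes), 0 under T-cell scaling (15 with the block added) and 4 without mouse 1 or its flow-through library, and it ran from 1 (without flow-through library 3 or enriched library 2 or 4) to 16 (without flow-through library 2). The share of all genes called lower was 6.86% under T-cell scaling, 16.7% with the block added, 12.8% without mouse 1 and 7.73% to 14.6% without 1 library. The largest called falls were those of Hspd1 and Hspe1, the mitochondrial chaperonin pair, at -0.84 (adjusted p = 0.0373) and -0.71 (adjusted p = 0.0223), and of Cct3, a subunit of the cytosolic chaperonin, at -0.49 (adjusted p = 0.0352). A ratio of 2 genes in the same library does not depend on the scaling, so 3 pairs, chosen after their values were seen, were compared by it. The ratio of Hsp90b1 to its cytosolic paralog Hsp90ab1 was 0.114, 0.250, 0.171 and 0.176 in the flow-through and 0.278, 0.378, 0.311 and 0.379 in the enriched libraries, 1.95-fold higher on average. For Hspa5 over Hspa8, the constitutive cytosolic HSP70, the ratio was 0.175 to 0.280 and 0.282 to 0.348, 1.48-fold higher. Atf6 over its paralog Atf6b gave 0.139 to 0.177 and 0.294 to 0.342, 2.03-fold higher. All 3 ratios were higher in the enriched library of 4 of 4 mice without overlap between the fractions, which is a description only, since the pairs were chosen for it. Such a ratio shows that 2 genes changed unequally, not which of them changed. In limma the paralogs Hsp90ab1 (-0.46, adjusted p = 0.0302) and Hspa8 (-0.42, adjusted p = 0.0434) were themselves called lower. Atf6b was not called (-0.13, adjusted p = 0.234).

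Other genes of the same routes are given by list, to be read against 14.1% higher and 13.7% lower of all genes, or 22.2% and 22.7% in the blocked fit. Of 21 further entries for the signal recognition particle, translocon and signal peptidase, Sec11c, a signal peptidase subunit, rose by 0.38 and Sec61a2 fell (-0.50), at a list median of 0.065, and with the block 3 were higher and 1 lower. Without flow-through library 1, limma called 1 of them higher and none lower. The entries for Srp54b and Srp54c took the values of 1 and the same gene, so the distinct genes are fewer. Among the 12 oligosaccharyltransferase genes, which attach N-glycans, Tusc3 rose by 0.28, and Ostc was also called higher with the block. Of 22 other folding factors, Fkbp2 rose by 0.30, and Mogs, the glucosidase that trims new glycans, fell (-0.55), while the block called 6 higher and 3 lower. Those added were Txndc5, Txndc11, Txndc12, Dnajc1 and Uggt1, higher, and Tmx1 and Sil1, lower, of which Txndc5, a disulfide isomerase, had a log2 fold change of 0.54 (adjusted p = 0.0561, and adjusted p = 0.00157 with the block). In 21 further genes of ER-associated degradation, Selk and Ube2j1 rose, by 0.60 and 0.25, joined by Vimp with the block. None of 10 other sensors and ER stress factors was called by limma (4 higher at an unadjusted p under 0.05), and Creb3 and Map3k5 were called higher with the block. The medians of the last 4 lists lay between -0.041 and 0.017.

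Of 21 targets of ATF4 and CHOP tested, 2 were called higher and 2 lower, where 14.1% and 13.7% of all genes were. Without flow-through library 1 the counts were 1 and 1 (14.1% and 13.1% of all genes). With all libraries, Ddit4, an inhibitor of mTORC1, and Nupr1 rose by 0.81 and 0.63. Ppp1r15a (GADD34), which reverses the block on translation, and Shmt2, a mitochondrial enzyme of serine metabolism, fell (-0.75 and -0.56). The list median was -0.038. With the block 4 were higher and 4 lower, against 22.2% and 22.7% of all genes, adding Atf3 and Cebpb, higher, and Asns and Nars, lower. Ppp1r15a was at 50.4, 55.1, 60.0 and 83.6 FPKM in the flow-through libraries of mice 1 to 4 and 31.5, 38.0, 32.3 and 43.0 FPKM in the enriched libraries, without overlap. Asns, asparagine synthetase, was at 97.6, 24.7, 59.8 and 34.0 FPKM in the flow-through and 34.7, 12.9, 23.8 and 9.64 FPKM in the enriched libraries, and its log2 fold change of -1.34 passed only with the block (adjusted p = 0.000637). Of 10 genes whose products CD8+ T cells secrete, which pass through the ER, 6 rose and none fell (9 and 0 at an unadjusted p under 0.05), at a median of 0.93, led by the granzymes Gzma and Gzmb and by Ifng, at 2.19, 1.85 and 1.35. With the block 8 rose, with T-cell scaling 4 did, and 3 rose when flow-through library 3 or enriched library 2 or 4 was left out. The share of all genes called higher was 2.89% under T-cell scaling and 9.24% to 9.49% without those libraries. Gzma is also one of the NK markers counted above.

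**Figure D5:**
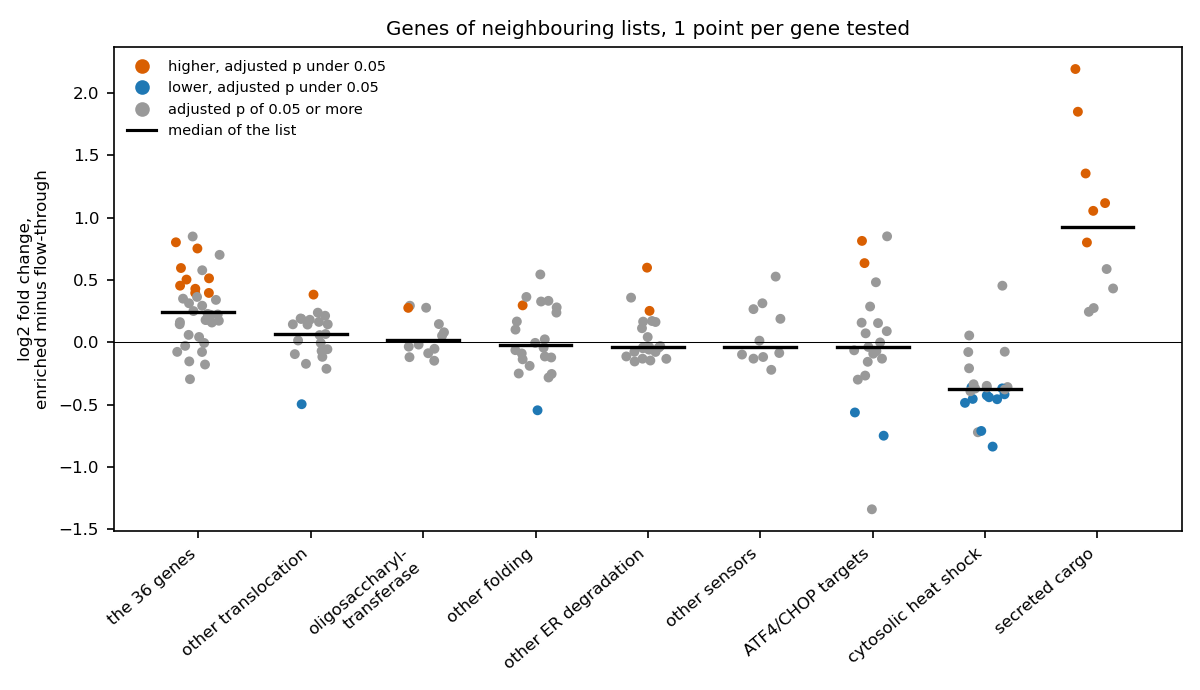
Log2 fold change of each tested gene in the 36 genes and in 8 neighboring lists, with called genes in color and the list median as a bar. The bars run from -0.37 for the cytosolic heat shock genes to 0.93 for secreted cargo, and the bar of the 36 genes is at 0.24.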

How the data were processed

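RNA of 8 libraries (TruSeq Stranded mRNA, paired ends of 150 bp) was analysed from the deposited table of FPKM values. Per the paper's methods and the submitters' processing notes, the authors mapped trimmed reads to mm10 with TopHat and estimated FPKM with Cufflinks 2.1.1, with correction for multi-mapped reads and fragment bias. The annotation release and the use of strand were not given in the sources used here, so overlapping and antisense genes may share reads, and near-identical genes such as Hspa1a and Hspa1b rest on how multi-mapped reads were divided. No counts were used, and depth was estimated from the smallest steps of the FPKM values. Groups and library numbers came from the sample labels.

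Genes averaging 1 FPKM or more over the 8 libraries were tested on log2(FPKM + 1) with limma 3.58.1 in R 4.3.3 (variance trend, Benjamini-Hochberg, threshold 0.05), after a check on simulated data. Adding 1 understates the change of low genes. All 36 genes were named, and in other lists the 3 called genes of largest change. Shmt2, genes called only with the block and the ratio pairs were chosen after their values were seen. The genes and lists were chosen with earlier results of these data known. Same-numbered libraries were taken to come from the same mouse, by the numbers in their titles. Their deviations from the group means correlated at 0.66, 0.59, 0.31 and 0.47, where the highest value with another number was 0.20, 0.41, 0.20 and 0.41. The block values therefore stand beside results they change. Slc7a5 and Irf8 were not analysed here. Alternatives were the pseudocount, the filter, 2 scalings, the block and leaving out libraries. Replicates within a fraction are separate mice, and each mouse gave a library to both fractions. The p-values without the block set a difference against the spread between mice and do not use this pairing. Those with the block and of the sign-flip test rest on the differences within mice.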

Additional observations from a re-analysis of the deposited data

Results flagged for a closer look

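Among 72 groups of 4 libraries (36 genes in 2 fractions), 3 held a library farther from the other 3 than Dixon's 95% limit for its share of the range, where chance gives about 1 in 20 groups, or 3.6. Ddit3 was at 18.5 FPKM in the enriched library of mouse 4, against 14.2 to 14.7 FPKM in the other enriched libraries. Herpud1 was at 37.5 FPKM in the flow-through library of mouse 1, against 49.0 to 51.3 FPKM in the others of its fraction. Edem1 was at 47.5 FPKM in the enriched library of mouse 1, against 58.5 to 60.3 FPKM.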

How the results depend on the processing

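Atf6, Dnajb11, Sdf2l1, Pdia3 and Ero1l kept their calls in every setting tried except T-cell scaling (Atf6 kept it also under T-cell scaling in mice 2 to 4), and Hsp90b1, Dnajc3, Pdia4 and Creld2 lost them without a filter and when any of flow-through library 3 or 4 or enriched library 2, 3 or 4 was left out, Dnajc3 also without enriched library 1. The number of the 36 genes called higher was 9 with a pseudocount of 0.1, a mean of at least 5 FPKM or median scaling, 5 without a filter, 0 under T-cell scaling with or without the replicate block, 1 under T-cell scaling in mice 2 to 4, 18 with the replicate block, and 5 to 14 when 1 library was left out (14 without flow-through library 2). The number called lower was 1 (Ddit3) with a mean of at least 5 FPKM, with the replicate block and without enriched library 4, and otherwise 0 (range without 1 library 0 to 1). Over all genes, 351 were higher and 834 lower under T-cell scaling, 392 higher and 2036 lower with the replicate block added, 1071 higher and 1618 lower in mice 2 to 4, 2705 and 2763 with the replicate block alone, and 1124 to 1802 higher and 940 to 1781 lower without 1 library. Of the calls, 50.8% were higher as deposited, 29.6% under T-cell scaling and 39.8% under it in mice 2 to 4. The median of the 36 genes was -0.099 under T-cell scaling, 0.12 in mice 2 to 4 and 0.19 to 0.30 without 1 library, and the log2 difference of the summed plasma cell markers was 0.26 (without flow-through library 1) to 0.98. T-cell scaling rests on 8 genes that are low in flow-through library 1. It turned the sign of 14 genes without a call, with the same values with the replicate block: Hspa5 -0.19, Hyou1 -0.18, Pdia6 -0.088, P4hb -0.30, Ppib -0.17, Calr -0.28, Eif2ak3 -0.16, Ern1 -0.025, Edem1 -0.045, Syvn1 -0.12, Derl2 -0.11, Sec61a1 -0.18, Sec61b -0.16 and Sec61g -0.12. In mice 2 to 4 it turned P4hb (-0.058), Calr (-0.061) and Sec61b (-0.0021). Signs near 0 also turned for Ssr4 under median scaling (0.0019) and when libraries were left out (range -0.070 to 0.086), and in such fits for Ssr1 (-0.11 to 0.021), Dnajb9 (-0.19 to 0.015), P4hb (-0.045 to 0.12) and Calr (-0.00093 to 0.14). The cause of these changes was not tested. The 2 combined T-cell scalings were chosen after seeing the data. Derl3 and Ero1lb had wide intervals with 4 mice (SE 0.36 and 0.28). What set this width was not tested. Atf6, at 7.08 FPKM in the flow-through where Derl3 had 7.18 FPKM, had an SE of 0.10, and Xbp1, at 70.6 FPKM, one of 0.27.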
